A study of Homo sapiens with 6 samples.

Results

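The 10 secreted signalling genes described here are 3 ligands of the interleukin 6 family (IL11, IL6 and LIF), 5 chemokines (CXCL8, CXCL1, CXCL2, CXCL3 and CCL20) and 2 interleukin 1 cytokines (IL1A and IL1B). They were taken by symbol from the deposited gene tables, where all 10 were found among 26485 symbols. They were read in 6 messenger RNA libraries of cultured human lung cancer cells, 2 each of PC9-AMG, PC9-BrM4 and PC9. PC9 is an EGFR-mutant lung adenocarcinoma line, and PC9-BrM4 is, by earlier work and not by the labels, its brain-metastatic derivative. The meaning of AMG is not stated in the labels, the PC9-AMG tables bear EMG in their names and were assigned by the sample records, and no drug, allele or time is given for any of the 3. Nothing in the labels says that the libraries of a line came from separate cultures. Every p-value therefore measures the spread between these libraries alone, which may be technical.

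Cytokines of the interleukin 6 family bind a receptor of their own and then engage the shared signalling chain gp130, the product of IL6ST, which activates JAK kinases and the transcription factor STAT3. CXCL8 and its CXCL relatives draw neutrophils through the receptors CXCR1 and CXCR2, and CCL20 draws lymphocytes and dendritic cells through CCR6. Interleukin 1 cytokines act through IL1R1 and its partner IL1RAP, and their signal ends in NF-kB and AP-1, transcription factors that switch on many genes of both other groups. The messenger RNAs of such genes are short-lived, because AU-rich stretches near their ends are recognised by decay proteins.

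The promoters of the 3 genes with the largest differences in PC9-AMG are shown first, because they carry different motifs of these factors. RefSeq promoters (250 bases before to 50 after a start, build GRCh38.p14) matched 9 of the 10 genes, all but LIF. Shown are the 250 bases before the start of IL11 (chr19:55370464-55370713 on the minus strand), IL6 (chr7:22726950-22727199 on the plus strand) and CXCL8 (chr4:73740319-73740568 on the plus strand). Capitals mark the AP-1 motif TGANTCA in IL11 and CXCL8, a consensus NF-kB motif and a C/EBP motif TTGCNNAA in IL6, and GGAATTTCC in CXCL8.
IL11: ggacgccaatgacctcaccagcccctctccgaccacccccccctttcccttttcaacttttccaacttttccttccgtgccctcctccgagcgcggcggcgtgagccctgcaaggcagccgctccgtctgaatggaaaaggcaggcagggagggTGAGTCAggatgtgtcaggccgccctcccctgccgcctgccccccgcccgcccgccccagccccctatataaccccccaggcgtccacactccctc
IL6: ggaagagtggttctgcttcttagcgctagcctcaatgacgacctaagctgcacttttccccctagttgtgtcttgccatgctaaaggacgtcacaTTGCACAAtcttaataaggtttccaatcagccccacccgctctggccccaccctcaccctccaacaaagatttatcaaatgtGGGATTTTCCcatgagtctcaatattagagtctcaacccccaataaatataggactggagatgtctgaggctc
CXCL8: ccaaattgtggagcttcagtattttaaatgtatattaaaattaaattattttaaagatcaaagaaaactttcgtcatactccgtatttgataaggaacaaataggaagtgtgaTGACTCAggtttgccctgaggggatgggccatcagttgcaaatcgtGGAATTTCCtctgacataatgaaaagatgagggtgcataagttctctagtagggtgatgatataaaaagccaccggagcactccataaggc

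Both strands were searched, and positions count from the start site at 0. The AP-1 motif TGANTCA stood at -96 to -90 in IL11, at -137 to -131 in CXCL8 and in the promoter of IL1A, and 7.76% of 27305 promoters hold it. The consensus NF-kB motif stood at -73 to -64 in IL6 and in CXCL1, CXCL2, CXCL3 and CCL20, against 10.8% of all promoters. CXCL8 has the close variant GGAATTTCC at -91 to -83, which 0.472% of promoters hold. That variant was picked after the sequences were read, and in CXCL1, CXCL2 and CXCL3 it lies inside the consensus motif. The C/EBP motif TTGCNNAA was found in IL6, CXCL2 and IL1B, and in 10.6% of all promoters. A match describes the letters, and binding was not measured here.

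CXCL1, CXCL2 and CXCL3 are near copies, and their promoters carry the same NF-kB site at nearly the same place. The 100 bases from -120 to -21 are shown for CXCL1 (chr4:73869273-73869372 on the plus strand), CXCL2 (chr4:74099216-74099315 on the minus strand) and CXCL3 (chr4:74038710-74038809 on the minus strand), with that site in capitals.
CXCL1: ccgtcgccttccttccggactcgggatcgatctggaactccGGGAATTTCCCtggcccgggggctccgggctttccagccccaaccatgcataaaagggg
CXCL2: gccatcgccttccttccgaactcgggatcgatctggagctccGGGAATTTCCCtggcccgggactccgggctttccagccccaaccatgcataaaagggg
CXCL3: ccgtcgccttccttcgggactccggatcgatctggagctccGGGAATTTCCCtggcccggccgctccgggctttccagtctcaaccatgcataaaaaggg

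The coding sequences of these 3 genes were 90.7% to 94.4% identical to one another and 51.6% to 54.1% identical to CXCL8 in GENCODE 29. Reads can be shared among CXCL1, CXCL2 and CXCL3, so the values of each of them are uncertain. Every one of the 10 genes holds at least 1 copy of the AU-rich heptamer TATTTAT in its 3′ untranslated region, against 29.5% of 18765 genes. CXCL2 has 8 copies, IL11 7, LIF 5 and CCL20 1. The shorter pentamer ATTTA occurred 2.18 to 13.99 times per kilobase of that region in the 10 genes, with a median over all genes of 1.47.

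Levels are in TPM, transcripts scaled by length and to a fixed total, so that genes can be compared within a library. LIF was the most abundant of the 10 in every library, and IL11 came next. Summed TPM of the 3 interleukin 6 family ligands was 107 to 137 in PC9-AMG, 50.7 to 53.9 in PC9-BrM4 and 48.8 to 50.8 in PC9. The 4 CXCL genes together gave 7.54 to 13.6 TPM in PC9-AMG, 3.01 to 3.47 in PC9-BrM4 and 3.85 to 4.78 in PC9. IL1A and IL1B together gave 2.39 to 3.06 TPM in PC9-AMG, 0.745 to 0.750 in PC9-BrM4 and 3.12 to 3.24 in PC9. The PC9-AMG libraries thus stood above the others for the first 2 groups, and the PC9-BrM4 libraries below the others for the interleukin 1 pair. In bulk RNA, more cells that express a gene and more RNA per cell cannot be told apart. LIF made up 44.3% to 52.6% of the summed TPM of all 10 in PC9-AMG, 81.0% to 81.7% in PC9-BrM4 and 61.8% to 62.1% in PC9.

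**Figure D1:**
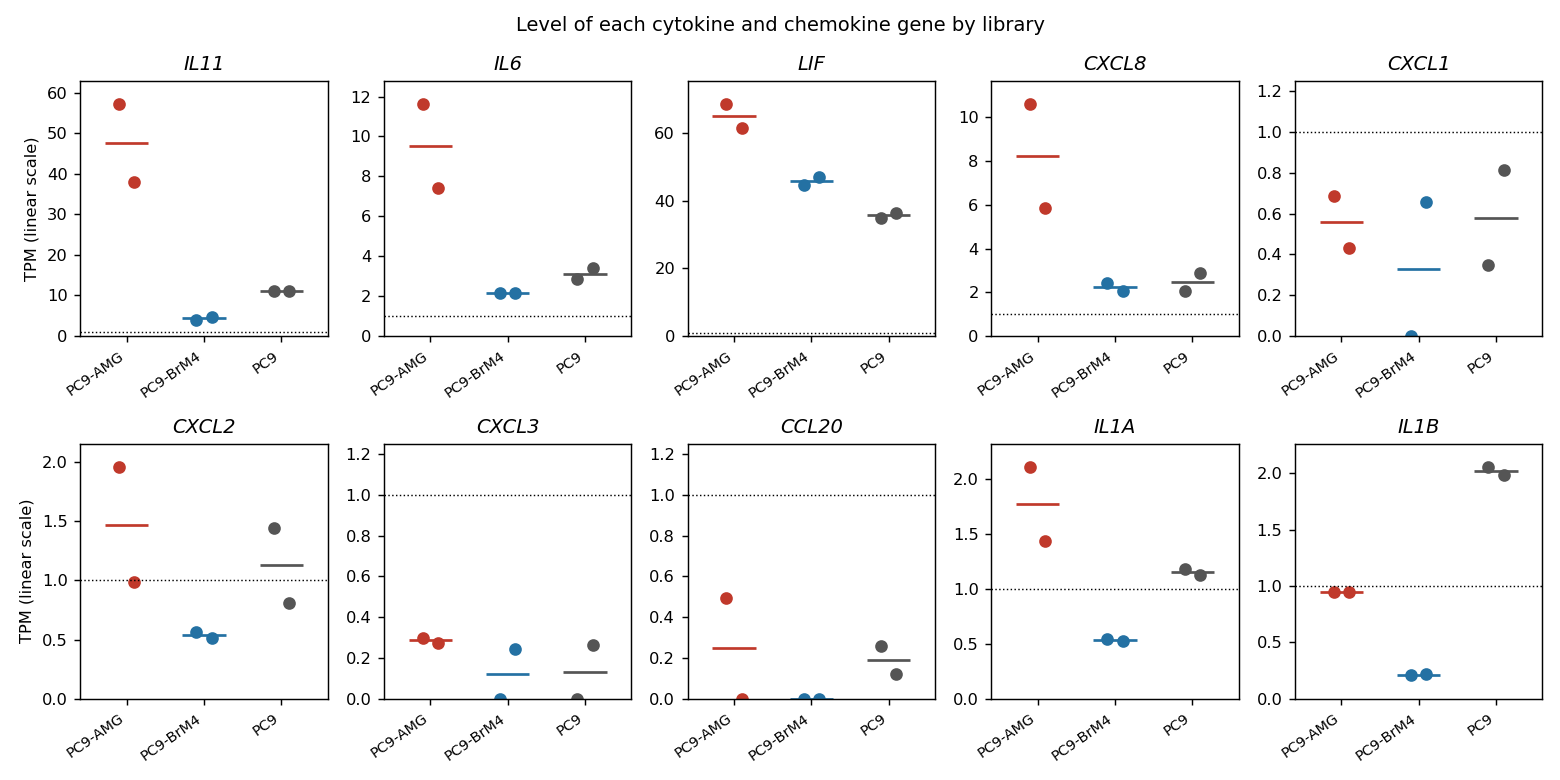
TPM of each of the 10 genes on a linear scale, with 1 panel a gene. Points are the 2 libraries of PC9-AMG, PC9-BrM4 and PC9, bars are the means, and the dotted line marks 1 TPM. IL11, IL6, LIF and CXCL8 are highest in PC9-AMG, IL1B is highest in PC9, and CXCL1, CXCL3 and CCL20 stay under 1 TPM.

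CXCL1, CXCL3 and CCL20 were below 1 TPM in all 6 libraries. CXCL2 and IL1B were below it in 4 libraries and IL1A in 2, whereas IL11, IL6, LIF and CXCL8 were above it throughout. A gene was tested where it reached 1 TPM in at least 2 libraries, which 7 of the 10 and 14195 symbols did. IL1B passed through the PC9 libraries alone, so that it had to differ from PC9, and its differences from PC9 are given as a description, with no test. The test is limma on log2(TPM + 1), with adjusted p over all genes tested and a threshold of 0.05. That scale understates changes of low genes. The 3 comparisons share their libraries pairwise, so they are not independent of one another.

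In PC9-AMG against PC9, 4 of the 7 tested genes were higher (IL11, IL6, LIF and CXCL8), CXCL2 and IL1A did not pass, and IL1B had lower values. Over all genes tested 55.5% passed, 27.8% higher and 27.7% lower. The median log2 difference of the 7, IL1B included, was 0.85, against -0.01 over all genes. For 7 of the 10, 6 higher and 1 lower, the PC9-AMG and PC9 libraries did not overlap, as for 79.8% of all genes tested. In each comparison the 10 include 3 genes below the filter, which the share over all genes leaves out. CXCL3, at 0.298 and 0.274 TPM in PC9-AMG and 0 and 0.261 TPM in PC9, is among the 6. In PC9-BrM4 against PC9, LIF alone of the 7 was higher, IL11 and IL1A were lower, IL6, CXCL8 and CXCL2 did not pass, and IL1B had lower values. Here 46.6% of all genes passed, 23.4% higher and 23.1% lower. The median of the 7, IL1B included, was -0.45. No overlap between libraries was found for 7 of the 10, CCL20 below the filter among them, and for 75.2% of all genes tested. In PC9-AMG against PC9-BrM4 all 7 tested genes were higher, with a median of 0.85. Among all genes 56.1% passed, 28.1% higher and 28% lower, and 77.5% had no overlap between libraries, as had 8 of the 10.

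**Figure D2:**
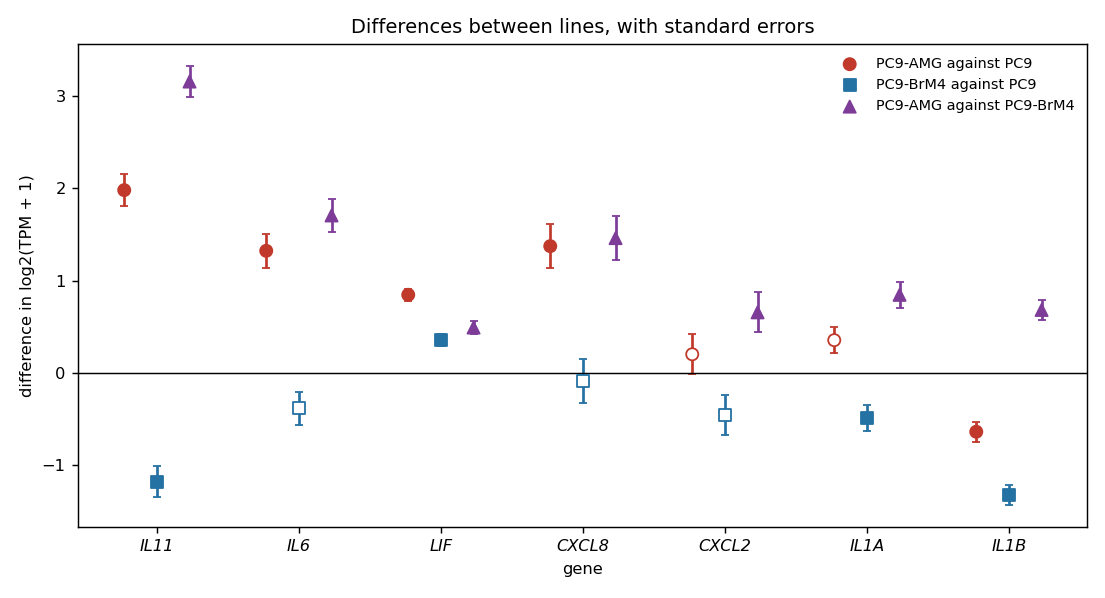
Log2 difference between lines in log2(TPM + 1) for the 7 tested genes, with standard errors from limma. Filled symbols passed an adjusted p of 0.05 and open ones did not. Among these 7, IL11 has the largest rise in PC9-AMG, 1.98 against PC9 and 3.15 against PC9-BrM4. IL1B passed the filter through PC9 alone, so its differences from PC9 are a description, although their symbols are filled.

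IL11, a ligand known for its part in bone remodelling, fibrosis and tumour growth, lies at chr19:55364382-55370463 on the minus strand of hg38. It had 57.2 and 37.9 TPM in PC9-AMG, 4.04 and 4.68 TPM in PC9-BrM4, and 11.1 TPM in both PC9 libraries. The 3 lines did not overlap, with PC9-AMG highest and PC9-BrM4 lowest. Means were 47.6 ± 13.6 TPM in PC9-AMG, 4.36 ± 0.450 TPM in PC9-BrM4 and 11.1 ± 0.0325 TPM in PC9 (SD, n = 2 each). PC9-AMG stood 4.29-fold above PC9 (log2 difference 1.98, SE 0.169, limma adjusted p = 8.39e-05). PC9-BrM4 fell below PC9 by 1.17 on the log2 scale (SE 0.169, limma adjusted p = 0.00114). Between PC9-AMG and PC9-BrM4 the ratio of means was 10.9 (log2 difference 3.15, limma adjusted p = 7.70e-06). That rise ranked 13 among the 14195 genes, and IL11 passed in all 16 alternative settings of each comparison.

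IL6, the founding member of the family and a driver of the acute phase response, lies at chr7:22727147-22732002 on the plus strand. It had 11.6 and 7.41 TPM in PC9-AMG, 2.17 and 2.15 TPM in PC9-BrM4, and 2.84 and 3.42 TPM in PC9. Both PC9-AMG libraries were above all others, 3.04-fold over PC9 by the means (log2 difference 1.32, SE 0.182, limma adjusted p = 0.000716). Both PC9-BrM4 libraries were below both of PC9, but the log2 difference of -0.38 did not pass (limma adjusted p = 0.124). The fit shares its estimate of spread among the lines, PC9-AMG included. With only the PC9-BrM4 and PC9 libraries fitted, the same difference passed (limma adjusted p = 0.0403). It passed only in alternatives that left out PC9-AMG libraries. PC9-AMG was 4.40-fold above PC9-BrM4 (limma adjusted p = 0.000183). An antisense model, LOC541472, overlaps IL6 and had 0.234 to 1.20 TPM. The library kit keeps the strand, but no source used here says whether the quantification used it, so reads of the 2 cannot be told apart with certainty.

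LIF, named for its inhibition of leukaemia cells and known to sustain stem cells and to act on muscle and fat, lies at chr22:30240447-30246851 on the minus strand. Its values were 68.4 and 61.3 TPM in PC9-AMG, 44.5 and 47.0 TPM in PC9-BrM4, and 34.8 and 36.3 TPM in PC9. The lines did not overlap, and unlike IL11 both PC9-AMG and PC9-BrM4 were above PC9. The means were 1.82-fold those of PC9 in PC9-AMG (log2 difference 0.85, SE 0.0667, limma adjusted p = 6.07e-05). In PC9-BrM4 they were 1.29-fold those of PC9 (log2 difference 0.35, SE 0.0667, limma adjusted p = 0.00396). PC9-AMG was also above PC9-BrM4, by 0.49 on the log2 scale (limma adjusted p = 0.000584). LIF was the one gene of the 7 that passed as higher in both lines against PC9.

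CXCL8, also called interleukin 8, is the best known neutrophil chemokine and lies at chr4:73740506-73743716 on the plus strand. It had 10.6 and 5.85 TPM in PC9-AMG, 2.45 and 2.05 TPM in PC9-BrM4, and 2.05 and 2.89 TPM in PC9. Both PC9-AMG libraries were above all others, while PC9-BrM4 and PC9 overlapped. PC9-AMG was 3.33-fold above PC9 (log2 difference 1.37, SE 0.238, limma adjusted p = 0.00213) and 3.66-fold above PC9-BrM4 (limma adjusted p = 0.00147). Between PC9-BrM4 and PC9 the log2 difference was -0.09 (SE 0.238, limma adjusted p = 0.790), and its sign turned in 3 of the 16 alternatives.

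The other CXCL genes were near the limit of detection. CXCL2 (chr4:74097037-74099280, minus strand), a neutrophil chemokine like CXCL8, had 1.96 and 0.984 TPM in PC9-AMG, 0.562 and 0.515 TPM in PC9-BrM4, and 1.45 and 0.812 TPM in PC9. PC9-AMG overlapped PC9, and the log2 difference of 0.20 did not pass (limma adjusted p = 0.452). PC9-AMG was higher than PC9-BrM4 by 0.66 (limma adjusted p = 0.0332), a call lost in 5 of 16 alternatives, with adjusted p from 0.0148 to 0.202. Without the first PC9-AMG library that difference was 0.37, and without the first or the second PC9-BrM4 library the call was lost too. CXCL1 (chr4:73869392-73871302, plus strand) had 0.687 and 0.434 TPM in PC9-AMG, 0 and 0.656 TPM in PC9-BrM4, and 0.349 and 0.812 TPM in PC9, so that the lines overlapped. CXCL3 (chr4:74036591-74038773, minus strand) had 0.298 and 0.274 TPM in PC9-AMG, was listed at 0 and 0.245 in PC9-BrM4, and at 0 and 0.261 in PC9. CCL20 (chr2:227813842-227817564, plus strand) was listed at 0.493 and 0 TPM in PC9-AMG, at 0 in both PC9-BrM4 libraries, and at 0.258 and 0.121 in PC9. With no filter on low values, limma adjusted p of these 3 ran from 0.306 to 1.

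IL1A, which is active in its precursor form, lies at chr2:112773915-112785394 on the minus strand. It had 2.11 and 1.44 TPM in PC9-AMG, 0.541 and 0.528 TPM in PC9-BrM4, and 1.18 and 1.13 TPM in PC9. The 3 lines did not overlap. PC9-BrM4 was lower than PC9 by a log2 difference of -0.49 (SE 0.140, limma adjusted p = 0.0237), a call lost in 5 of 16 alternatives, all 4 that left out a PC9-BrM4 or PC9 library among them (adjusted p from 0.0637 to 0.0843). PC9-AMG against PC9 gave 0.36 (limma adjusted p = 0.0636, not passed), which passed at 0.0245 without the second PC9-AMG library. PC9-AMG was above PC9-BrM4 by 0.85 (limma adjusted p = 0.00161).

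IL1B, which needs cleavage by caspase 1, lies at chr2:112829760-112836779 on the minus strand, next to IL1A. It had 0.946 and 0.948 TPM in PC9-AMG, 0.210 and 0.217 TPM in PC9-BrM4, and 2.06 and 1.99 TPM in PC9. Both PC9 libraries were highest, which held for none of the other 9 genes. By the means CXCL1 had the same order of lines, but its libraries overlapped and lay below 1 TPM. Relative to PC9 the log2 difference was -0.64 in PC9-AMG and -1.32 in PC9-BrM4 (SE 0.109 each), described here without a test. The ratio of means to PC9 was 0.468 in PC9-AMG and 0.105 in PC9-BrM4. With a pseudocount of 0.1 the second difference was -2.76, because a pseudocount of 1 weighs heavily at these levels. PC9-AMG was above PC9-BrM4 by 0.68 (limma adjusted p = 0.00131).

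The 2 PC9-AMG libraries differed more in these genes than in most. The first was above the second in 9 of the 10 genes, all but IL1B, and in 60.8% of the genes tested. Its values were 1.51 times those of the second for IL11, 1.57 times for IL6, 1.81 times for CXCL8, 1.99 times for CXCL2 and 1.12 times for LIF. The median absolute log2 difference between the libraries was 0.577 over the 7 tested genes in PC9-AMG, against 0.0810 over all genes tested. It was 0.0445 against 0.0868 in PC9-BrM4 and 0.0596 against 0.0622 in PC9. The fit shares its estimate of spread among the lines, so the spread in PC9-AMG also enters PC9-BrM4 against PC9. What lies behind this spread was not tested.

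In their pattern over the 6 libraries, IL6 and CXCL8 were the most alike of the 7, with a root mean square difference of 0.153 in log2(TPM + 1) after each was centred on its mean. CXCL2 and IL1A followed at 0.155. IL11 stood apart, at 0.598 to 1.21 from the others. This measure includes the size of the differences, which the pseudocount of 1 shrinks for low genes such as CXCL2 and IL1A. By the means, IL11 had the same order of lines as IL6, CXCL8, CXCL2 and IL1A, although lines overlapped for CXCL8 and CXCL2. Outside the 10, the genes most like the mean of the 7 were SC5D, an enzyme of cholesterol synthesis, at 0.0634 and TMIE at 0.0800, followed by SHOX2, ABCA12 and SLC29A4. Those most like LIF, the most abundant member, were the pyrimidine salvage enzyme UPP1 at 0.0351 and the AP-1 subunit FOSL1 at 0.0364, followed by PIK3CD, ISG15 and USP36. FOSL1 had a mean of 219.2 TPM in PC9-AMG, 158 TPM in PC9-BrM4 and 121 TPM in PC9. These are descriptions over 3 lines of 2 libraries.

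Transcripts of several receptors for these ligands were present in the same cells. The 14 receptor genes listed also include OSMR, IL27RA and CNTFR, which serve other ligands of the interleukin 6 family. Of the 14, 9 were tested, and IL27RA is among those counted as higher in both lines against PC9. Against PC9, 4 were higher and 1 lower in PC9-AMG (median 0.19), which is 55.6% of those tested, beside 55.5% of all genes. In PC9-BrM4 against PC9, 3 were higher and 1 lower (median 0.25), which is 44.4%, beside 46.6% of all genes. IL6ST, the shared chain gp130, had 55.0 ± 7.34 TPM in PC9-AMG, 53.5 ± 1.18 TPM in PC9-BrM4 and 44.8 ± 2.61 TPM in PC9 (SD, n = 2 each). It was higher in PC9-AMG than in PC9 by 0.28 (limma adjusted p = 0.0278), and in PC9-BrM4 it missed the threshold (0.25, limma adjusted p = 0.0502). The call in PC9-AMG was lost without PC9-AMG replicate 1 (limma adjusted p = 0.131) or PC9 replicate 2 (limma adjusted p = 0.140). IL6R, the binding chain for IL6, averaged 3.77 ± 0.784 TPM in PC9-AMG, 2.05 ± 0.371 TPM in PC9-BrM4 and 1.36 ± 0.136 TPM in PC9. It was higher in PC9-AMG than in PC9 (log2 difference 1.01, limma adjusted p = 0.000985). IL11RA, the binding chain for IL11, lay between 1.70 and 2.44 TPM in the 6 libraries and did not pass in any comparison (limma adjusted p from 0.585 to 0.813).

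LIFR, which pairs with gp130 for LIF, had 6.15 and 4.91 TPM in PC9-AMG, 1.52 and 1.80 TPM in PC9-BrM4, and 6.18 and 6.16 TPM in PC9. It fell in PC9-BrM4 against PC9 by 1.43 on the log2 scale (limma adjusted p = 0.000102), while LIF itself was higher in PC9-BrM4 than in PC9. PC9-AMG was above PC9-BrM4 by 1.29 (limma adjusted p = 9.12e-05). OSMR, the receptor chain for oncostatin M, averaged 74.5 ± 11.0 TPM in PC9-AMG, 58.4 ± 1.94 TPM in PC9-BrM4 and 65.0 ± 2.31 TPM in PC9, and passed between PC9-AMG and PC9-BrM4 (0.34, limma adjusted p = 0.0158). That call was lost without PC9-AMG replicate 1 or either PC9-BrM4 library (limma adjusted p from 0.0502 to 0.0886). IL27RA, another partner of gp130, averaged 20.6 ± 0.158 TPM in PC9-AMG, 18.2 ± 0.810 TPM in PC9-BrM4 and 8.07 ± 0.821 TPM in PC9, and rose in both lines against PC9 (limma adjusted p = 3.16e-05 and 6.91e-05). The chemokine receptors CXCR1, CXCR2 and CCR6 averaged at most 0.0826 TPM in every line.

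The interleukin 1 receptor IL1R1 averaged 5.58 ± 0.194 TPM in PC9-AMG, 13.2 ± 0.887 TPM in PC9-BrM4 and 7.58 ± 0.535 TPM in PC9. It fell in PC9-AMG by 0.38 (limma adjusted p = 0.00843) and rose in PC9-BrM4, each against PC9 (limma adjusted p = 0.000550). Its fall in PC9-AMG missed the threshold without PC9-AMG replicate 2 (limma adjusted p = 0.0501) or PC9 replicate 1 (limma adjusted p = 0.0643). The decoy receptor IL1R2 averaged 25.8 TPM in PC9-AMG, 31.5 TPM in PC9-BrM4 and 17.8 TPM in PC9. IL1RN, the antagonist of the receptor, averaged 21.1 ± 0.295 TPM in PC9-AMG, 8.73 ± 0.378 TPM in PC9-BrM4 and 16.3 ± 1.81 TPM in PC9. It rose in PC9-AMG (log2 difference 0.36, limma adjusted p = 0.00997) and fell in PC9-BrM4 (-0.83, limma adjusted p = 0.000286), each against PC9. The rise was lost without PC9-AMG replicate 1 (limma adjusted p = 0.0562) or PC9 replicate 1 (limma adjusted p = 0.0786). The level of IL1RN was above the summed IL1A and IL1B in each line. Of 15 other genes of the interleukin 1 family and its processing, 8 were tested, and 6 of them rose and 2 did not pass in PC9-AMG against PC9. There were 3 that rose and 3 that fell in PC9-BrM4 against PC9. In each of these 2 comparisons 75% of those tested passed, beside 55.5% of all genes in PC9-AMG and 46.6% in PC9-BrM4. IL18, a cytokine of the same family, averaged 87.1 ± 5.37 TPM in PC9-AMG, 26.1 ± 1.87 TPM in PC9-BrM4 and 57.4 ± 0.170 TPM in PC9, and passed in all 3 comparisons. The inflammasome adaptor PYCARD averaged 71.6 ± 2.55 TPM in PC9-AMG, 95.5 ± 9.75 TPM in PC9-BrM4 and 46.4 ± 0.819 TPM in PC9.

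Among 7 other ligands of the interleukin 6 family, 4 were tested. CLCF1, a ligand that acts through CNTFR, averaged 48.5 ± 3.60 TPM in PC9-AMG, 35.7 ± 1.26 TPM in PC9-BrM4 and 33.8 ± 0.640 TPM in PC9. It rose in PC9-AMG against PC9 (log2 difference 0.51, limma adjusted p = 0.000528), while its receptor gene CNTFR was listed at 0 in all libraries. CTF1, the gene of cardiotrophin 1, averaged 5.68 ± 0.592 TPM in PC9-AMG, 5.70 ± 0.364 TPM in PC9-BrM4 and 7.15 ± 0.174 TPM in PC9, and fell in both lines against PC9 (limma adjusted p = 0.0378 and 0.0464). Neither CTF1 call held when either PC9 library or replicate 1 of the other line was left out, nor, in PC9-BrM4, without its replicate 2 (limma adjusted p from 0.0636 to 0.187). Of 24 other chemokines, 4 were tested. CXCL16, a membrane-bound chemokine, averaged 98.9 ± 1.90 TPM in PC9-AMG, 66.4 ± 5.36 TPM in PC9-BrM4 and 38.2 ± 1.09 TPM in PC9, above all 5 chemokines described here. It rose in PC9-AMG (1.35, limma adjusted p = 8.13e-06) and in PC9-BrM4 (0.78, limma adjusted p = 8.92e-05), each against PC9. CXCL5, which lies in the same chromosome 4 cluster as CXCL8, stayed at or under 0.373 TPM.

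Of the 14 genes of the JAK-STAT3 pathway, all tested, 4 rose and 2 fell in PC9-AMG against PC9. That is 42.9% of the list, while 55.5% of all genes passed. In PC9-BrM4 against PC9, 5 rose and 2 fell, 50% of the list, while 46.6% of all genes passed. SOCS3, the feedback inhibitor of gp130 signalling, had 31.4 and 28.2 TPM in PC9-AMG, 15.4 and 14.9 TPM in PC9-BrM4, and 13.6 and 14.7 TPM in PC9. Both PC9-AMG libraries were above the rest, with log2 differences of 1.03 to PC9 (limma adjusted p = 4.91e-05) and 0.93 to PC9-BrM4 (limma adjusted p = 5.33e-05). STAT3 itself averaged 55.4 ± 2.82 TPM in PC9-AMG, 45.3 ± 3.05 TPM in PC9-BrM4 and 51.5 ± 1.12 TPM in PC9. SOCS1, a related inhibitor, averaged 2.76 ± 0.0839 TPM in PC9-AMG, 5.58 ± 0.408 TPM in PC9-BrM4 and 2.13 ± 0.209 TPM in PC9. PIAS3, an inhibitor of STAT3, averaged 19.6 ± 0.0669 TPM in PC9-AMG and 32.5 ± 0.0511 TPM in PC9, and fell (limma adjusted p = 7.70e-05). Of 14 STAT3-induced genes, 7 rose and 2 fell in PC9-AMG against PC9, with a median of 0.29. That is 64.3% of the list, beside 55.5% of all genes. The counts in PC9-BrM4 against PC9 were 3 and 2, with a median of 0.09, which is 35.7% of the list, beside 46.6% of all genes. BCL6, a repressor in that list, fell in both, to 11.2 ± 1.50 TPM in PC9-AMG and 16.3 ± 0.336 TPM in PC9-BrM4, while PC9 had 21.2 ± 0.218 TPM. The BCL6 call in PC9-BrM4 was lost without PC9-BrM4 replicate 1 or either PC9 library (limma adjusted p from 0.0558 to 0.0667).

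Most listed genes of NF-kB and AP-1 were higher in PC9-AMG than in PC9. The NF-kB list holds both subunits and inhibitors, so its counts do not measure NF-kB activity. Whether these factors act on the 10 genes was not tested. Of 16 NF-kB subunits and inhibitors, 11 rose and 5 did not pass in PC9-AMG against PC9, with a median of 0.28, beside the 27.8% of all genes that rose. In PC9-BrM4 against PC9, 5 rose and 1 fell, beside 23.4% and 23.1% of all genes. NFKB2, a subunit of the noncanonical pathway, averaged 45.8 ± 0.910 TPM in PC9-AMG, 21.6 ± 0.609 TPM in PC9-BrM4 and 15.8 ± 0.359 TPM in PC9. Its rise over PC9 was 1.48 in PC9-AMG (limma adjusted p = 4.38e-06) and 0.43 in PC9-BrM4 (limma adjusted p = 0.000914). NFKB1, the canonical subunit, averaged 23.9 ± 0.418 TPM in PC9-AMG and 20.4 ± 0.354 TPM in PC9 (0.22, limma adjusted p = 0.0245), a call lost when any of these 4 libraries was left out (limma adjusted p from 0.0646 to 0.123). NFKBIZ, a nuclear cofactor known to be needed for IL6 induction, averaged 7.91 ± 0.879 TPM in PC9-AMG, 6.74 ± 0.157 TPM in PC9-BrM4 and 9.64 ± 0.598 TPM in PC9, and fell in PC9-BrM4 against PC9 (limma adjusted p = 0.00666). TNFAIP3, which ends NF-kB signalling, averaged 26.3 ± 5.43 TPM in PC9-AMG, 35.2 ± 4.48 TPM in PC9-BrM4 and 13.5 ± 0.0813 TPM in PC9.

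Of the 11 AP-1 subunits, 9 rose and 1 fell in PC9-AMG against PC9, with a median of 0.69, beside the 27.8% of all genes that rose and the 27.7% that fell. In PC9-BrM4 against PC9, 1 rose and 3 fell, with a median of -0.16, beside 23.4% and 23.1%, and in PC9-AMG against PC9-BrM4, 10 were higher and 1 lower, beside 28.1% and 28% of all genes. ATF3 had the largest rise of them in PC9-AMG against PC9 among genes with at least 5 TPM (2.17, limma adjusted p = 7.87e-06). It averaged 34.7 ± 4.58 TPM in PC9-AMG, 4.98 ± 0.283 TPM in PC9-BrM4 and 6.92 ± 0.0315 TPM in PC9. FOSL1 rose in both lines against PC9, by 0.86 in PC9-AMG (limma adjusted p = 1.99e-05) and by 0.38 in PC9-BrM4 (limma adjusted p = 0.000746). FOS was the subunit that fell in PC9-AMG, to 4.53 ± 0.189 TPM, against 7.49 ± 0.495 TPM in PC9 (limma adjusted p = 0.000880). BATF fell in PC9-BrM4 to 33.6 ± 3.08 TPM, against 52.0 ± 2.19 TPM in PC9 (limma adjusted p = 0.000880).

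Of 12 regulators of AU-rich messenger RNA decay, 7 rose and 2 fell in PC9-AMG against PC9, and 4 rose and 3 fell in PC9-BrM4 against PC9. That is 75% and 58.3% of the list, beside 55.5% and 46.6% of all genes. DUSP1 had the largest rise of that list in PC9-AMG against PC9 among genes with at least 5 TPM (2.41, limma adjusted p = 8.54e-06). It averaged 53.1 ± 9.62 TPM in PC9-AMG, 6.14 ± 0.0319 TPM in PC9-BrM4 and 9.10 ± 0.336 TPM in PC9. ZFP36, which binds the heptamer and hastens decay, averaged 33.1 TPM in PC9-AMG, 19.2 TPM in PC9-BrM4 and 18.1 TPM in PC9. ZC3H12A, an endonuclease that cuts IL6 messenger RNA, averaged 18.3 TPM in PC9-AMG, 10.3 TPM in PC9-BrM4 and 10.5 TPM in PC9. Both rose in PC9-AMG against PC9 (limma adjusted p = 4.22e-05 for ZFP36 and 0.000149 for ZC3H12A). TIA1, a translational silencer, was lower in both lines, at 23.9 ± 0.581 TPM in PC9-AMG and 27.6 ± 0.0328 TPM in PC9-BrM4, while PC9 had 44.4 ± 0.210 TPM. In a list of 20 further inflammatory outputs of NF-kB, 15 were tested. Of these 7 rose and 3 fell in PC9-AMG against PC9, while 5 rose and 3 fell in PC9-BrM4 against PC9. That is 66.7% and 53.3% of those tested, beside 55.5% and 46.6% of all genes. SAA1, an acute phase protein gene, had 5.74 and 6.76 TPM in PC9-AMG, 2.02 and 1.46 TPM in PC9-BrM4, and 0.670 and 0 TPM in PC9. The adhesion molecule gene ICAM1 averaged 73.0 ± 2.91 TPM in PC9-AMG, 51.2 ± 1.88 TPM in PC9-BrM4 and 15.6 ± 0.508 TPM in PC9, and rose in both lines against PC9 (limma adjusted p = 1.62e-06 and 2.54e-06). TNFAIP2, a gene induced by TNF, averaged 42.0 ± 0.229 TPM in PC9-AMG, 124 ± 2.95 TPM in PC9-BrM4 and 154 ± 6.05 TPM in PC9. It had the largest fall of the list in PC9-AMG against PC9 (-1.85, limma adjusted p = 1.49e-06). Of 14 adaptors and receptors of interleukin 1 and Toll signalling, 13 were tested, and 5 rose and 5 fell in PC9-AMG against PC9. That is 76.9% of those tested, beside 55.5% of all genes. TLR4, the receptor for bacterial lipopolysaccharide, averaged 0.213 ± 0.0333 TPM in PC9-AMG, 12.9 ± 0.717 TPM in PC9-BrM4 and 3.88 ± 0.00710 TPM in PC9.

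**Figure D3:**
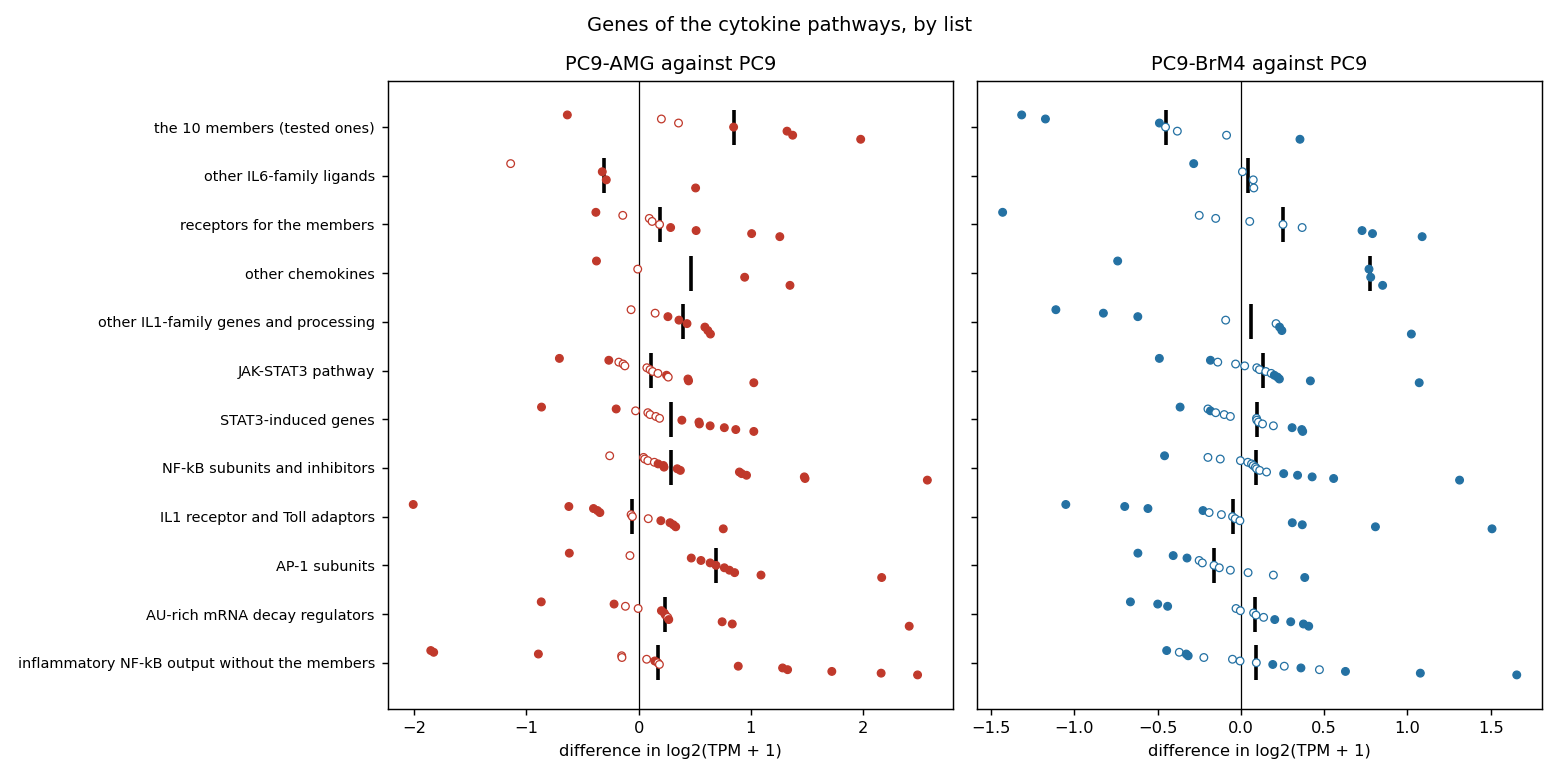
Log2 difference in log2(TPM + 1) of each tested gene of the 10 and of 11 pathway lists, for PC9-AMG against PC9 (left) and PC9-BrM4 against PC9 (right). Filled points passed a limma adjusted p of 0.05, open points did not, and vertical bars are list medians. The point of IL1B is filled, but IL1B passed the filter through PC9 alone and had to differ from it. The AP-1 median is 0.69 on the left and -0.16 on the right.

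Most of the tested genes around IL11 were higher in PC9-AMG. Within 1 Mb of IL11, counted between lowest coordinates, 43 other genes were tested. In PC9-AMG against PC9, 34 of them rose and 1 fell, beside 27.8% and 27.7% of all genes. SBK2 and TTYH1 reached 1 TPM in PC9-AMG alone and so had to rise. NLRP4, the 1 that fell, reached it in PC9 alone and so had to fall. Their median log2 difference was 0.61, and 95.3% of them lay above 0. IL11 exceeded that median by 1.37. In PC9-BrM4 against PC9, 6 of the 43 rose and 18 fell, beside 23.4% and 23.1% of all genes. NLRP4 is among the 18 and again had to fall. The median of the 43 was -0.08, and IL11 lay 1.09 below it. In PC9-AMG against PC9-BrM4, 36 were higher and 1 lower, beside 28.1% and 28% of all genes. SBK2 and TTYH1 are among the 36 and again had to be higher. The median of the 43 was 0.62, which IL11 exceeded by 2.53. PTPRH, a receptor phosphatase 183 kb away picked out after its values were seen, had 18.6 and 16.9 TPM in PC9-AMG, 1.68 and 1.48 TPM in PC9-BrM4, and 4.10 and 3.99 TPM in PC9, the same order of lines as IL11. UBE2S, 36.9 kb away and picked likewise, had 537 and 533 TPM in PC9-AMG, 261 and 269 TPM in PC9-BrM4, and 293 and 281 TPM in PC9. What these neighbours share with IL11 was not tested.

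The neighbourhoods of IL6, LIF and the interleukin 1 pair had medians near 0. Over all genes tested, 27.8% were higher and 27.7% lower in PC9-AMG against PC9. The 18 tested neighbours of IL6 had a median of 0.04 in that comparison, with 5 higher and 3 lower. The 34 neighbours of LIF had a median of 0.03, with 8 higher and 7 lower, and the 19 of IL1A and IL1B a median of 0.01, with 6 higher and 3 lower. Symbols with a further locus on the same chromosome outside the window were left out. Of the 7 tested neighbours of CXCL8 outside the 10 genes, 4 rose and 1 fell in PC9-AMG against PC9, with a median of 0.81. Among them are the EGF family growth factors AREG, EREG and EPGN, picked out after their values were seen. AREG, 705 kb from CXCL8, had 83.1 and 60.4 TPM in PC9-AMG, 30.1 and 27.1 TPM in PC9-BrM4, and 25.8 and 25.7 TPM in PC9. EREG, 625 kb away, had 11.4 and 7.32 TPM in PC9-AMG, 5.11 and 4.48 TPM in PC9-BrM4, and 4.47 and 3.88 TPM in PC9. EPGN, 568 kb away, had 16.2 and 12.4 TPM in PC9-AMG, 13.6 and 14.2 TPM in PC9-BrM4, and 6.92 and 7.06 TPM in PC9. EPGN passed in PC9-BrM4 against PC9 (0.90, limma adjusted p = 0.000713), which AREG, EREG and CXCL8 did not, and it did not pass between PC9-AMG and PC9-BrM4 (0.02, limma adjusted p = 0.872). The first PC9-AMG library was above the second for all 3, as for CXCL8.

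**Figure D4:**
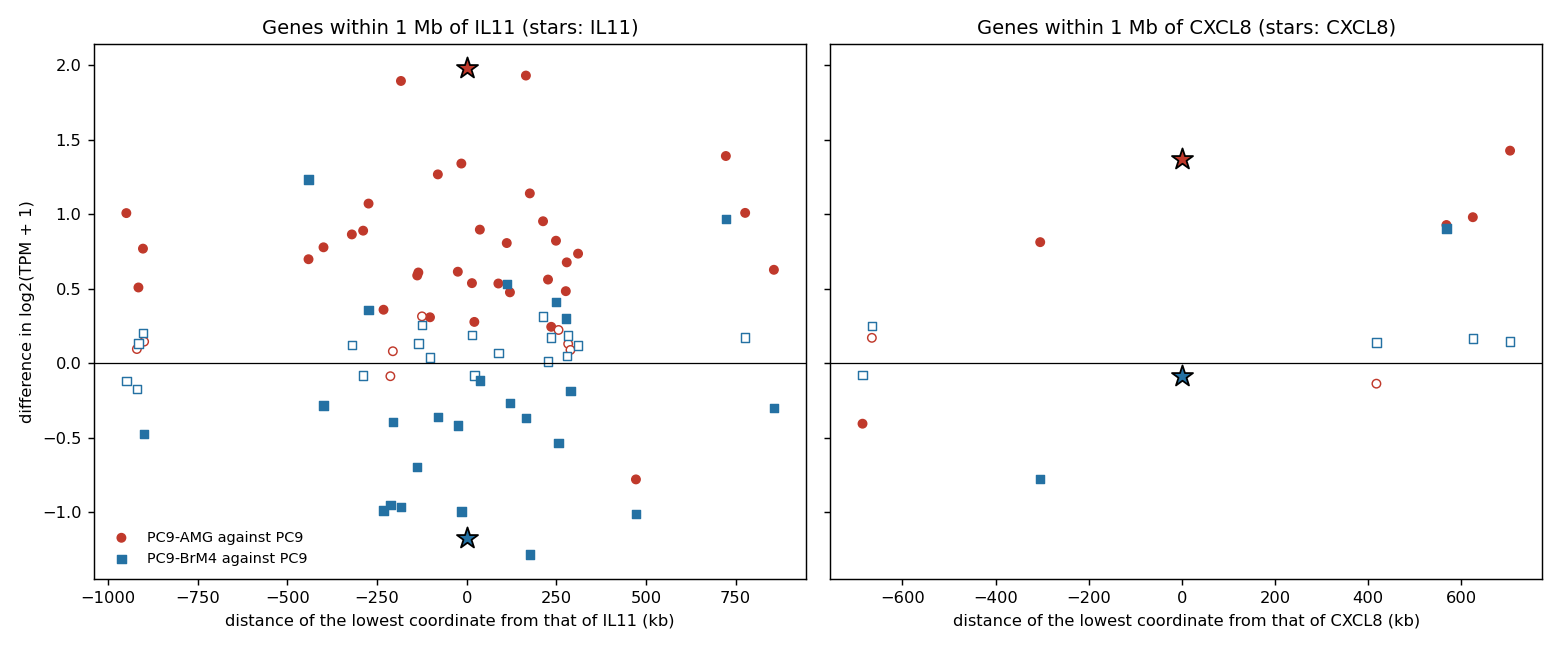
Log2 difference in log2(TPM + 1) of the tested genes within 1 Mb of IL11 (left) and of CXCL8 (right), against distance in kb. Circles are PC9-AMG against PC9 and squares PC9-BrM4 against PC9, filled where the limma adjusted p was under 0.05, and stars are IL11 and CXCL8. Around IL11, 34 of 43 circles are called above 0, with a median of 0.61. Among them SBK2 and TTYH1 passed the filter through PC9-AMG alone. NLRP4, called below 0 in both comparisons, passed it through PC9 alone.

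The libraries held 2.66 to 4.39 gigabases of aligned sequence, as estimated from the deposited coverage, and 13455 to 13764 genes reached 1 TPM in each. Epithelial markers were high in all 6 libraries, with EPCAM at 665 to 726 TPM, whereas the lung lineage markers NKX2-1, NAPSA and SFTPB were below 1 TPM. Of 12 leukocyte markers, 3 reached 1 TPM anywhere, and AIF1 and TYROBP were among those at 0 throughout. Their summed TPM was 48.7 to 49.7 in PC9-AMG, 42.7 to 43.5 in PC9-BrM4 and 51.2 to 51.3 in PC9, mostly CD68. CSF1R stood at 4.25 and 3.81 TPM in PC9-AMG and ITGAM at 3.98 and 4.13 TPM, while both were under 1 TPM in PC9-BrM4 and PC9, and PTPRC was at most 0.150 TPM in any library. Of 10 fibroblast and endothelial markers, 4 reached 1 TPM anywhere. Their sum was 21.8 to 22.2 TPM in PC9-AMG, 7.09 to 7.61 in PC9-BrM4 and 10.7 to 11.2 in PC9. COL1A1 had 14.4 and 14.8 TPM in PC9-AMG, 3.68 and 4.43 TPM in PC9-BrM4, and 4.77 and 5.02 TPM in PC9. CDH5 had 4.08 and 3.29 TPM in PC9-AMG, 1.23 and 1.27 TPM in PC9-BrM4, and 2.01 and 2.46 TPM in PC9. ACTA2 and PECAM1 were lower in PC9-AMG than in PC9, and COL1A2, DCN and LUM were at 0 throughout. The part of these markers in the cytokine values was not tested.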

How the data were processed

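Total RNA was taken with TRIzol and made into TruSeq Stranded mRNA libraries, per the labels' protocols. For each library the authors deposited a gene table with TPM, FPKM and mean coverage. Tools named in the submitters' processing notes, without roles, are StringTie 1.3.4d, HISAT2 2.1.0 and bcl2fastq, with hg38 as build, and the sources used here do not give the annotation release. The file names of the PC9-AMG libraries hold EMG in place of AMG, so their line rests on the sample records. The deposited coverage served to estimate aligned bases. A table of the whole series, with 6 columns of values, was not used. TPM has a fixed total, so values are relative within a library. Counts and read depth are unknown, so no counting interval is given.

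Lines of a symbol were summed, and log2(TPM + 1) was fitted over all 6 libraries with limma 3.58.1 (R 4.3.3), a mean-variance trend and 3 residual degrees of freedom. Of 26485 symbols, 14195 had at least 1 TPM in at least 2 libraries. Called means a Benjamini-Hochberg adjusted p under 0.05. The script was tested on simulated data. The 16 alternatives were pseudocounts, filters, deposited FPKM, scalings, no trend, only 2 lines, a replicate block and leaving out each library. The 10 genes and all lists were chosen with earlier results of these data known. Genes named from the lists were drawn from fixed ones and, per comparison, from the called genes with the largest rise or fall and a mean of at least 5 TPM. Not all of these are named, and others serve as stated in the text. Motifs were sought in RefSeq promoters (GRCh38.p14) and 3′ untranslated regions of GENCODE 29.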

Additional observations from a re-analysis of the deposited data

How the results depend on the processing

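All counts of called genes stayed within 1.5 times their value in all 16 alternatives. Of the 10 genes, 4, 5 and 7 passed (PC9-BrM4 against PC9, PC9-AMG against PC9, PC9-AMG against PC9-BrM4). The counts against PC9 include IL1B, which had to differ from PC9, so its part in them is no result of a test. Some log2 differences changed sign when 1 library was left out. In PC9-BrM4 against PC9 their ranges were -0.262 to 0.0892 for CXCL8 (below 0 but for PC9 replicate 2 or PC9-BrM4 replicate 2 left out), -0.0208 to 0.103 for NFKB1 and -0.0835 to 0.0242 for ZC3H12A, both turned without PC9-BrM4 replicate 2. In PC9-AMG against PC9 they were -0.0860 to 0.491 for CXCL2 (turned without PC9 replicate 2 or PC9-AMG replicate 1), -0.0651 to 0.0106 for CEBPD (without PC9 replicate 1 or PC9-AMG replicate 2) and -0.169 to 0.0137 for BATF (without PC9-AMG replicate 1). In PC9-AMG against PC9-BrM4 they were -0.0949 to 0.0859 for CTF1 (without PC9-BrM4 or PC9-AMG replicate 1), -0.0950 to 0.0187 for IRAK2 (without PC9-BrM4 replicate 2) and -0.102 to 0.167 for IL6ST (without PC9-AMG replicate 1). CXCL8 in PC9-BrM4 against PC9 was 0.0196 with quantile normalization, and CTF1 in PC9-AMG against PC9-BrM4 was 0.00445 with FPKM and 0.000587 with median-of-ratios scaling. The cause was not tested. Beyond these, 10 calls of the 10 genes were lost and 5 gained, in IL6, IL1A and CXCL2. Among the other named genes 98 calls were lost and 27 gained. With the replicate number as a block, 4, 5 and 7 of the 10 genes passed, IL1B again included. Of the pathway genes 54, 76 and 78 passed, against 59, 79 and 81 without it, among 6126, 7457 and 7599 genes in all. The labels do not pair the numbers, and deviations of same-numbered libraries correlated at -0.0691 to -0.0277 across genes. With 2 libraries a line and levels near 1 TPM, small differences of CXCL1, CXCL2, CXCL3, CCL20, IL1A and IL1B were not detectable.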

Other observations

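Beyond the genes named above, the genes whose pattern over the 6 libraries was nearest to single cytokine genes were picked after their values were seen, and are given as descriptions. Nearest to IL11 were GDF15, a stress-induced cytokine, at a root mean square difference of 0.196 in centred log2(TPM + 1), and PTPRH, at 0.197. GDF15 averaged 26.1 TPM in PC9-AMG, 2.94 TPM in PC9-BrM4 and 6.39 TPM in PC9, the same order of lines as IL11. Among the 5 nearest to CXCL8 were 2 growth factors that bind EGFR, AREG at 0.168 and HBEGF at 0.178. HBEGF averaged 74.8 TPM in PC9-AMG, 31.4 TPM in PC9-BrM4 and 29.7 TPM in PC9. Nearest to IL6 was CHAC1, a glutathione-degrading enzyme, at 0.0998, with means of 32.6 TPM in PC9-AMG, 8.54 TPM in PC9-BrM4 and 11.2 TPM in PC9. Nearest to IL1A was B3GNT5 at 0.0296 and nearest to IL1B PLSCR4 at 0.0421. Likeness over 3 lines of 2 libraries says nothing of shared control. PTGS2, the inducible cyclooxygenase, had 2.23 and 1.55 TPM in PC9-AMG, 1.08 and 0.834 TPM in PC9-BrM4, and 1.60 and 1.45 TPM in PC9. TNF, at most 0.314 TPM, and CSF2, at most 0.577 TPM, stayed below 1 TPM in all libraries.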
